A study of Mus musculus with 6 samples.

Results

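The genes described here are 10 that move iron into cells, store it, export it and recover it from heme: Fth1, Ftl1, Tfrc, Slc40a1, Slc11a1, Slc11a2, Ireb2, Hmox1, Blvra and Blvrb. They were taken by symbol from a table of read counts, and all 10 matched 1 row each among 55487 distinct gene identifiers. The table comes from microglia, the resident macrophages of the brain, of female mice, in 6 libraries labelled as biological replicates. The mice were 20 months old, and the cells were sorted from cortex as live, CD11b-positive cells with intermediate CD45. The 3 controls, littermates of the others, carried floxed Atg7 alleles alone (Atg7-fl/fl). The 3 knockouts carried the same alleles with Cx3cr1-CreERT2, a Cre recombinase fused to an estrogen receptor domain and driven from the microglial Cx3cr1 locus. Floxed Atg7 is thus common to both groups, while loss of Atg7, an enzyme needed to form autophagosomes, and the Cre allele come together and cannot be told apart. The Cre is of the kind switched on by tamoxifen, whose dose and timing are not given in the sources used here.

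Cells take up transferrin-bound iron through the transferrin receptor (Tfrc), move it across endosomal and lysosomal membranes with the metal transporters Slc11a2 and Slc11a1, store it inside ferritin shells built from heavy (Fth1) and light (Ftl1) chains, and release it through ferroportin (Slc40a1). Heme oxygenase 1 (Hmox1) opens heme to biliverdin, iron and carbon monoxide. The biliverdin reductase Blvra turns adult biliverdin into bilirubin, while Blvrb reduces flavins and the fetal form of biliverdin. Iron held in ferritin is released when autophagy delivers ferritin to lysosomes, which links this group to Atg7, and free iron feeds the lipid peroxidation of ferroptosis, a kind of cell death named in the title of the series.

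Much of this system is set after transcription, through iron-responsive elements, short RNA hairpins bound by iron regulatory proteins when iron is scarce. Ireb2 encodes one of these proteins. In the 5′ untranslated region (UTR) a bound hairpin blocks translation, and in the 3′ UTR of Tfrc it protects the mRNA from decay. Read counts therefore report ferritin and ferroportin mRNA and not their translation. To show which members match a strict form of the element, protein-coding GENCODE M21 transcripts (build GRCm38) were searched. The pattern was C, 5 bases, CAGTGN and 5 bases, with all 5 flanking positions able to pair. Each is printed 5′ to 3′ with 6 further bases on either side, and capitals mark the 6-base loop.
Fth1, 5′ UTR, chr19:9982738-9982754, plus strand: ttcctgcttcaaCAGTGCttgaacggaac
Ftl1, 5′ UTR, chr7:45459785-45459801, minus strand: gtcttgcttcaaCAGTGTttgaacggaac
Slc40a1, 5′ UTR, chr1:45925471-45925487, minus strand: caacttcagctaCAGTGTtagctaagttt
Tfrc, 3′ UTR, chr16:32631225-32631241, plus strand: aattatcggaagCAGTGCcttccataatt
Tfrc, 3′ UTR, chr16:32631604-32631620, plus strand: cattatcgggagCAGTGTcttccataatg
Tfrc, 3′ UTR, chr16:32631669-32631685, plus strand: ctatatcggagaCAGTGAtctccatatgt
Tfrc, 3′ UTR, chr16:32631716-32631732, plus strand: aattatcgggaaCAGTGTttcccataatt
The coordinates are those of the 17-base element without the added bases. The 2 ferritin chains and Slc40a1 each held 1 match in the 5′ UTR, and Tfrc held 4 in the 3′ UTR. No match was found in the other 6 members, which says only that their annotated protein-coding transcripts do not meet this strict pattern. An element with a different loop or an imperfect stem would be missed, so these members may still carry one. Among 21877 protein-coding genes, 0.142% had a match in the 5′ UTR and 0.59% in the 3′ UTR. The fold changes below are for whole genes and do not separate transcripts with and without the element.

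Library totals ran from 1254380 to 39389527 reads, and the 2 smallest libraries, control 3 (1254380) and knockout 2 (3789208), are called shallow below. Values are a gene's reads per 1000000 library reads (CPM), with library sizes adjusted by TMM scaling, and 3 reads are worth 0.0789 CPM in control 1 but 2.36 CPM in control 3. No molecular identifiers were mentioned in the protocol, so intervals from reads cover counting error only. Atg7, the targeted gene, lay at 65.7, 66.4 and 56.6 CPM across controls 1 to 3, against 25.01, 26.5 and 23.7 CPM across knockouts 1 to 3 (log2 fold change -1.33, SE 0.19, edgeR adjusted p = 0.0147). Cx3cr1, at whose locus the Cre lies, averaged 10620 CPM ± 907 (SD, n = 3) among controls and 4710 CPM ± 791 among knockouts. The microglial markers, P2ry12 and Tmem119 among them, summed to between 55354 and 62119 CPM among controls and between 49772 and 55326 CPM among knockouts, and none of the 10 was at 0 in any library.

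Within the group, the knockouts differed from the controls mainly in Blvrb, which more than doubled, in a call that was lost in 9 of 18 other settings. Fth1 and the lysosomal transporter gene Slc11a1 were also at higher levels in every knockout than in every control, by smaller amounts that did not pass correction over all genes. Ftl1 was higher on average with overlapping groups. For Tfrc, Slc11a2, Slc40a1, Ireb2, Hmox1 and Blvra the 95% interval of the log2 fold change included 0. edgeR called 1 of the 10 members higher (Blvrb, adjusted p = 0.0409), against a background of 0.0317% of 15787 genes, and 0 lower, against 0.0127%. At an unadjusted p under 0.05, 4 members were higher (Blvrb, Fth1, Slc11a1 and Ftl1), where the background was 2.34%, and 0 were lower, where it was 1.98%. DESeq2 called 1 member higher (background 0.31%) and 0 lower (background 0.215%), and limma voom called 0 in either direction (background 0.057% higher and 0.038% lower). Knockout libraries lay wholly above the controls in 3 members (background 6.59%) and wholly below in 0 (background 4.47%). In 8 of 10 members the log2 fold change was positive, against 52.5% of all genes, and the median was 0.21 against 0.02. The members were proposed with results of these data known, so these shares describe the group and do not set it apart from other genes.

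**Figure D1:**
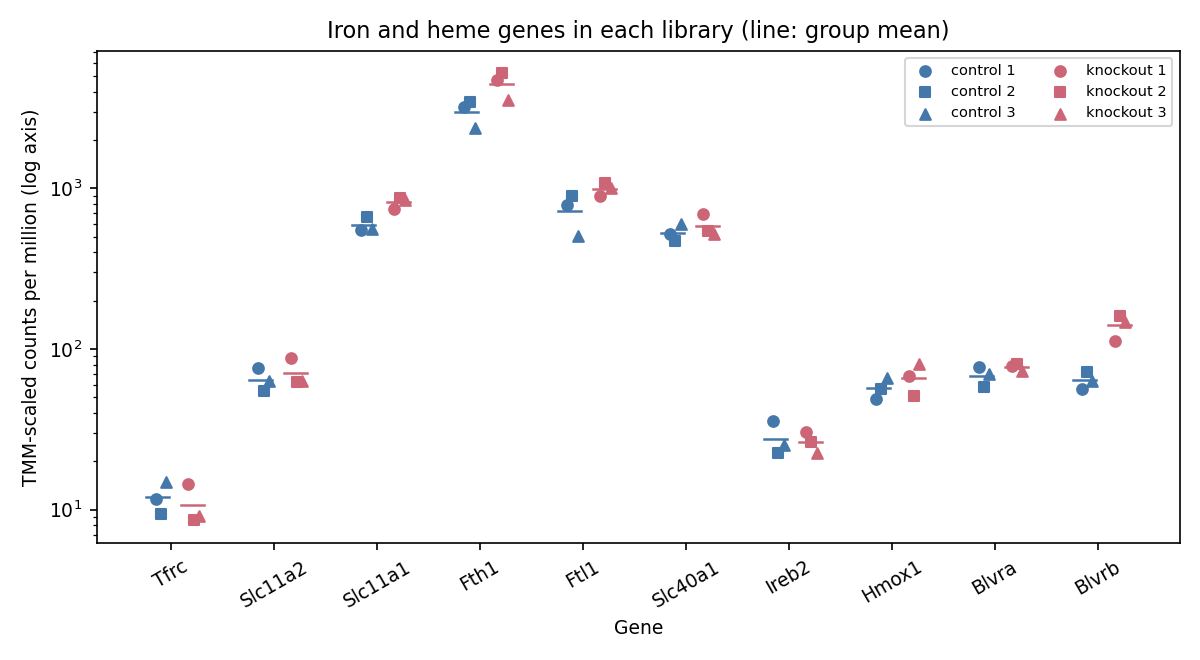
TMM-scaled CPM (log axis) of each member in each library, with controls in blue, knockouts in red, a marker shape per replicate number and a line at each group mean. Blvrb, Fth1 and Slc11a1 are the 3 genes whose knockout points all lie above their control points.

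The ferritin chains were the most abundant members. Per kilobase of annotated exon in the controls, Fth1 had 864 CPM ± 162 (SD, n = 3) and Ftl1 543 CPM ± 150, followed by Slc11a1 at 159, Slc40a1 at 58.5, Hmox1 at 32.6, Blvra at 27.9, Blvrb at 23.0, Slc11a2 at 10.1, Ireb2 at 2.92 and Tfrc at 1.94. Neighbouring ranges overlapped between Hmox1 and Blvra, between Blvra and Blvrb and between Ireb2 and Tfrc, so those orders are within the spread. In the knockouts Blvrb stood at 50.4 CPM per kilobase, above Hmox1 (37.9) and Blvra (31.6), with ranges that overlapped Hmox1 but lay above Blvra. When the length of the first listed GENCODE transcript was used instead, Blvrb already ranked above Blvra and Hmox1 in the controls, and the other 7 ranks were the same. Reads of Fth1 and Ftl1 together made up between 0.291% and 0.415% of each control library and between 0.46% and 0.639% of each knockout library.

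Tfrc, which imports transferrin-bound iron, was the least abundant member per kilobase. Its levels were 11.7, 9.33 and 14.9 CPM across controls 1 to 3, against 14.4, 8.57 and 9.07 CPM across knockouts 1 to 3. The groups overlapped in part, with knockout 1 inside the control range and knockouts 2 and 3 just below the lowest control. The highest control value rested on 19 reads, with a Poisson 95% interval of 8.99 to 23.3 CPM. The fold change was 0.924 with a 95% interval of 0.548 to 1.56 (log2 -0.11, SE 0.35), which takes in a change of 1.5 times in either direction. Its sign turned in 4 of 18 other settings, for example to 0.03 without control 3, and it was at -0.43 without knockout 1.

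Slc11a2, which moves ferrous iron out of endosomes into the cytosol, had 75.6, 54.6 and 62.9 CPM across controls 1 to 3, against 88.2, 62.3 and 62.9 CPM across knockouts 1 to 3. Knockout 1 was the highest library, while knockouts 2 and 3 lay inside the control range. The log2 fold change of 0.15 (SE 0.20) was below its error, and it became -0.06 without knockout 1. Of its exonic bases, 6.33% are shared with the gene Gm5475 on the other strand, which had at most 8 reads in any library.

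Slc11a1, also called NRAMP1, is the paralog of Slc11a2 on the phagosomes and late endosomes of macrophages, where it pumps iron and other divalent metals away from engulfed microbes. Per kilobase, it was the most abundant member after the ferritin chains. The controls had 552, 662 and 557 CPM and the knockouts 743, 864 and 840 CPM. Every knockout lay above every control, and the fold change was 1.38 (95% interval 1.13 to 1.69; log2 0.47, SE 0.14). The unadjusted p was 0.00417 and the edgeR adjusted p was 0.598, so the difference did not pass over all genes. Its log2 fold change stayed between 0.38 and 0.56 over 18 other settings, and the adjusted p over them was never below 0.12.

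The heavy ferritin chain, Fth1, carries the ferroxidase activity that oxidises iron for storage. Fth1 had 3195, 3437 and 2364 CPM across controls 1 to 3, against 4703, 5208 and 3550 CPM across knockouts 1 to 3. All knockouts exceeded all controls, but knockout 3 exceeded control 2 only narrowly. The fold change was 1.5 (95% interval 1.17 to 1.92; log2 0.58, SE 0.16), with an unadjusted p of 0.0038 and an edgeR adjusted p of 0.58. The shallow libraries held the lowest control value and the highest knockout value. Without both of them the log2 fold change was 0.31 (edgeR adjusted p = 0.777).

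Ftl1, the light chain that helps the iron core to form, had 783, 895 and 504 CPM across controls 1 to 3, against 890, 1077 and 1003 CPM across knockouts 1 to 3. Knockout 1 lay just under control 2, so the groups overlapped. The log2 fold change was 0.44 (SE 0.19, unadjusted p = 0.0316, edgeR adjusted p = 0.999). It rested in part on control 3, the lowest library, since it was 0.23 without that library and 0.17 without both shallow ones. Ferritin genes have many near-identical copies: reads on 3 annotated Ftl copies came to between 2.75% and 5.87% of the Ftl1 reads per library, and those on 2 Fth copies to at most 0.0755% of the Fth1 reads. When these reads were added to the parent genes, a setting chosen after seeing the data, the log2 fold changes were 0.46 for Ftl1 and 0.58 for Fth1. Further, 34.6% of the exonic bases of Ftl1 are shared with Gm10252 and Gm22133, which had at most 6 reads in any library, so reads there may have been left out of its count.

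**Figure D2:**
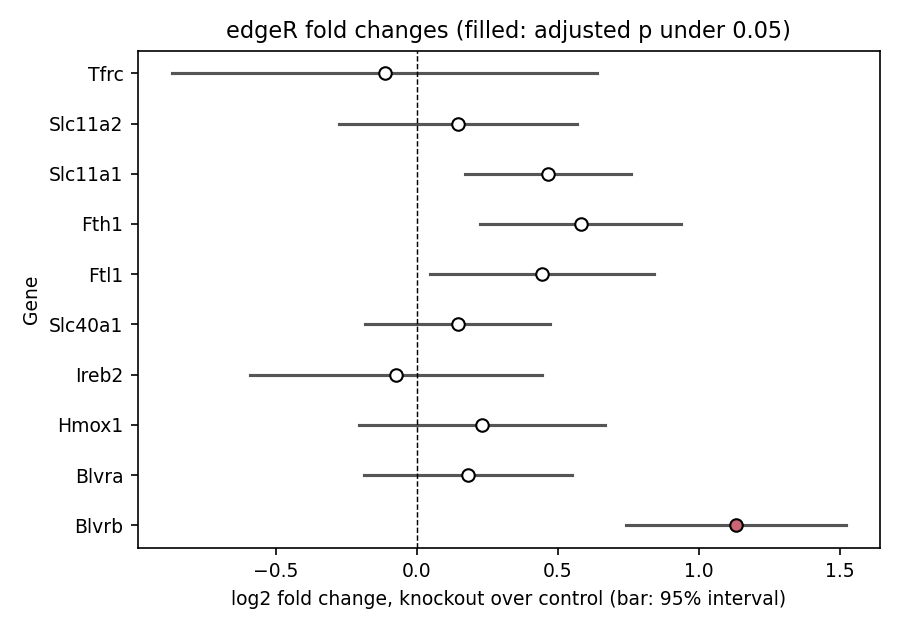
Log2 fold change of each member, knockout over control, from edgeR with its 95% interval; the filled point passed an adjusted p of 0.05. Blvrb is the filled point at 1.13, and the intervals of Fth1, Ftl1 and Slc11a1 also lie above 0 before adjustment over all genes.

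Ferroportin, the iron exporter of vertebrate cells, is encoded by Slc40a1. Its levels were 518, 467 and 596 CPM across controls 1 to 3, against 689, 539 and 517 CPM across knockouts 1 to 3. Knockout 1 was the highest of the 6 libraries, and the other knockouts lay within the control range. The log2 fold change was 0.14 (SE 0.15; 95% interval -0.18 to 0.47), and it was -0.01 without knockout 1. The bounds of that interval correspond to folds of 0.88 and 1.39, so a doubling of Slc40a1 mRNA lies outside it.

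Ireb2, the iron regulatory protein that is degraded when iron is plentiful, had 35.5, 22.4 and 25.1 CPM across controls 1 to 3, against 30.3, 26.5 and 22.6 CPM across knockouts 1 to 3. The groups overlapped, with control 1 the highest library. The log2 fold change was -0.07 (SE 0.24), and it was 0.17 without control 1 and 0.01 without knockout 3.

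Heme breakdown held the one called gene, Blvrb, beside 2 genes that were not called. Hmox1, the inducible heme oxygenase and a widely used target of the oxidative stress factor NRF2, had 48.7, 56.5 and 66.0 CPM across controls 1 to 3, against 68.1, 50.7 and 80.2 CPM across knockouts 1 to 3. Knockout 2 lay below control 3, and the difference of 0.23 in log2 was close to its SE of 0.20 (edgeR adjusted p = 0.999). It was 0.05 without knockout 3, 0.37 without knockout 2 and 0.49 without both shallow libraries. The interval of its fold, 0.868 to 1.59, leaves out a doubling. Blvra, the main reductase of adult biliverdin, had 76.7, 57.8 and 69.9 CPM across the controls, against 78.6, 80.3 and 72.9 CPM across the knockouts. Control 1 lay above knockout 3, and the log2 fold change was 0.18 (SE 0.17). It was 0.08 without control 2 and 0.29 without control 1.

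Blvrb, a reductase of flavins and of the fetal form of biliverdin, was the one member called. It had 56.3, 72.3 and 62.9 CPM across controls 1 to 3, against 112, 161 and 148 CPM across knockouts 1 to 3. The means were 63.8 CPM ± 8.05 (SD, n = 3) and 140.1 CPM ± 25.3. The lowest knockout was thus well above the highest control, and the Poisson 95% intervals of control 3, from 80 reads (49.9 to 78.2 CPM), and of knockout 1 (108 to 115 CPM) did not meet. The fold change was 2.19 with a 95% interval of 1.67 to 2.87 (log2 1.13, SE 0.18, edgeR adjusted p = 0.0409). It ranked 7 of 15787 genes by p, whereas 8.35% of genes had a larger absolute log2 fold change. The size of the change was steady over 18 other settings, at log2 1.01 to 1.25, but the call was not. The edgeR adjusted p was 0.33 without control 1, 0.0528 without control 2, 0.113 without knockout 1, 0.394 without knockout 2 and 0.187 without knockout 3, and 0.0321 without control 3. Without both shallow libraries it was 0.0945 at a log2 fold change of 1.01, and with DESeq2 the adjusted p was 1.07e-05.

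**Figure D3:**
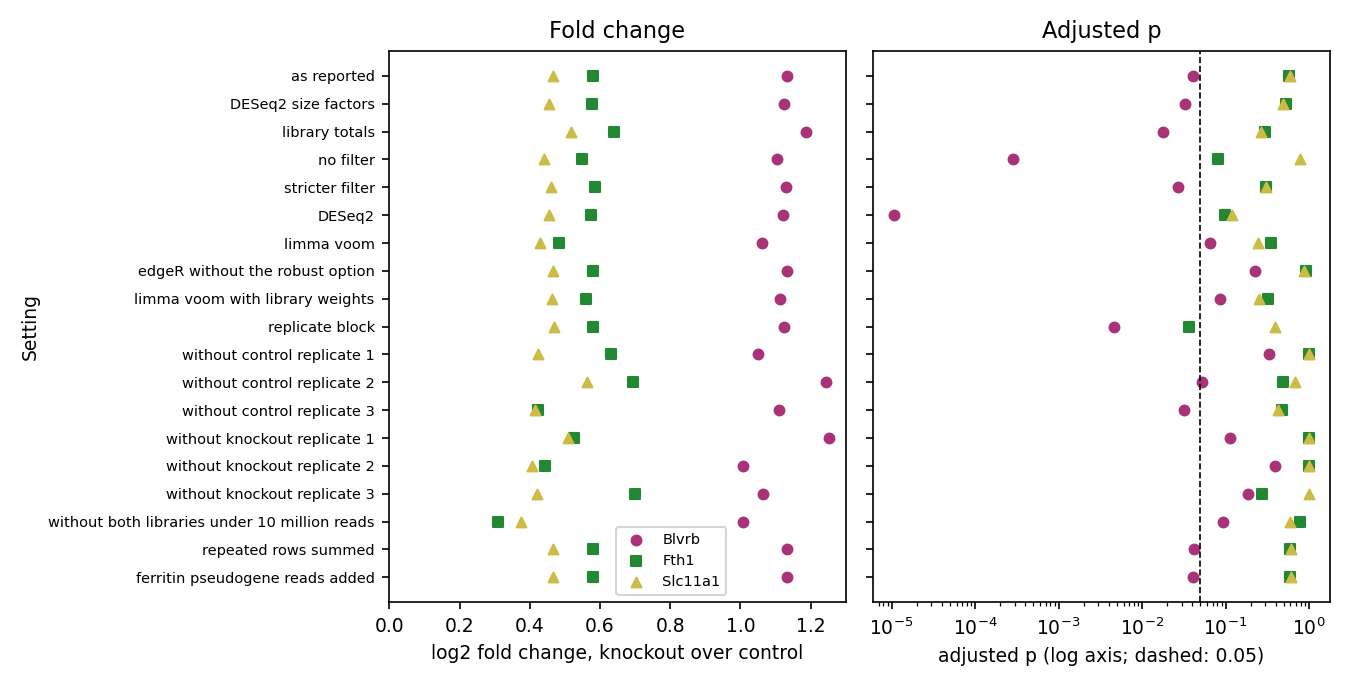
Log2 fold change (left) and adjusted p (right, log axis, dashed line at 0.05) of Blvrb, Fth1 and Slc11a1 as reported and under each of 18 other settings. Blvrb stays between 1.01 and 1.25 on the left while its adjusted p lies on either side of the line on the right.

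Pairs of members with a shared role were also compared within each library, where scaling between libraries plays no part. The ratio of Blvrb to Blvra reads was 0.734, 1.25 and 0.899 across controls 1 to 3, against 1.42, 2 and 2.03 across knockouts 1 to 3. All knockouts lay above all controls, a difference of 0.94 on the log2 scale (two-sided exact permutation p = 0.1, the smallest that 3 against 3 can give; 0.3 adjusted over the 3 ratios by Benjamini-Hochberg). The ratio of Slc11a1 to Slc11a2 reads was 7.30, 12.1 and 8.86 in the controls and 8.43, 13.9 and 13.4 in the knockouts, and it overlapped between the groups (difference in log2 0.33, exact permutation p = 0.3). The ratio of Fth1 to Ftl1 reads was 4.08, 3.84 and 4.69 in the controls and 5.28, 4.84 and 3.54 in the knockouts. It held both its highest and its lowest value in the knockouts, and the log2 difference of 0.10 (exact permutation p = 0.7) became -0.02 without knockout 1.

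**Figure D4:**
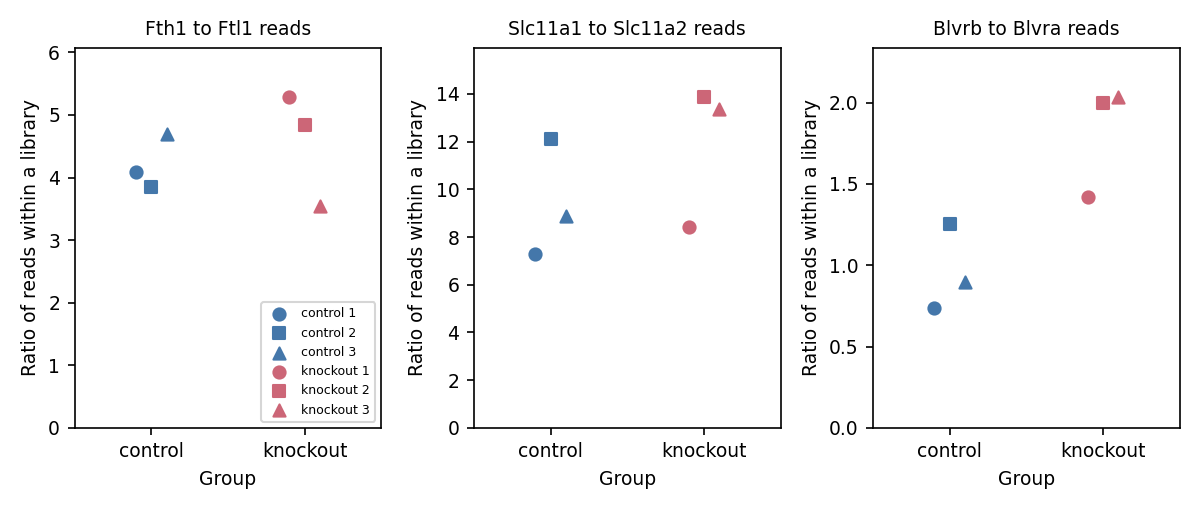
Ratio of the reads of 2 members within each library, by group, for Fth1 to Ftl1, Slc11a1 to Slc11a2 and Blvrb to Blvra; each axis starts at 0 and marker shapes give the replicate number. The Blvrb to Blvra ratio is the one whose groups do not overlap, at 0.734 to 1.25 in the controls and 1.42 to 2.03 in the knockouts.

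Since the reads of the reductases diverged, the 250 bases before the annotated start of each are printed. They come from the RefSeq promoter table (GRCm38.p6), which held 7 of the 10 members in 10 windows. Hmox1, Slc40a1 and Slc11a2 had no window there and were not searched, while Fth1, Tfrc and Blvrb had more than 1 window each. Capitals mark a match to TGACNNNGC, the core of the antioxidant response element bound by NRF2, on either strand. Blvrb has a second annotated start, whose window is not shown.
Blvra, chr2:127070407-127070656, plus strand: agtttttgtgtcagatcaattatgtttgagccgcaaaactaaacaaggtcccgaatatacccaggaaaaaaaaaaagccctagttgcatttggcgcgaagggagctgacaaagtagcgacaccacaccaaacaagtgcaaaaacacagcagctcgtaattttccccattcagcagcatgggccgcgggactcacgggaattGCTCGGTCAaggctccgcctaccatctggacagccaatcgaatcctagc
Blvrb, chr7:27447728-27447977, plus strand: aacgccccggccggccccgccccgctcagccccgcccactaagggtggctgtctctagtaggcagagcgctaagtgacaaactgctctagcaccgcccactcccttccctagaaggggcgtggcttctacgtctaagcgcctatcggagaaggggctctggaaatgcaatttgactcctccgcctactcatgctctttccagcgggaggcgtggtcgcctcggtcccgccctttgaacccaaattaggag
Blvra held 1 match, on the reverse strand and 40 bases before the start, and neither Blvrb window held one. Among 32851 promoter windows of this length, 10.2% held a match, as did 1 of the 10 member windows. GAGGAA, a core letter string of the myeloid factor PU.1, was found in 1 member window, that of Slc11a1, against 23.3% of all windows. CACGTG, the E-box read by TFEB and related lysosomal regulators, was found in 0 of the 10 member windows, against 6.02%. These are letter matches in short windows and do not show where any factor binds.

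Genes with patterns most like the leading members were sought among 5639 protein-coding genes with a mean of at least 20 CPM, by Pearson correlation of log2 CPM over the 6 libraries. For Blvrb the closest were the zinc importer gene Slc39a4 (r = 0.991), Slc11a1 (r = 0.982) and Pgd, an enzyme gene of the pentose phosphate pathway (r = 0.965). Slc39a4 had 28.1, 31.4 and 28.3 CPM across controls 1 to 3, against 65.7, 98.7 and 83.4 CPM across knockouts 1 to 3. It was called higher (log2 fold change 1.49, edgeR adjusted p = 0.0109). Pgd had 232, 236 and 228 CPM across controls 1 to 3, against 272, 275 and 284 CPM across knockouts 1 to 3. It was not called (edgeR adjusted p = 0.999). For Fth1 the closest were Rps21 (r = 0.993), which encodes a ribosomal protein, the peroxiredoxin gene Prdx1 (r = 0.991) and Naca (r = 0.990), which encodes a chaperone of nascent chains. Rps21 had 96.4, 98.4 and 67.6 CPM across controls 1 to 3, against 127, 142 and 99.0 CPM across knockouts 1 to 3, low in control 3 and knockout 3 as Fth1 was. The 6 points share 2 groups and uneven depth, so these values describe likeness only. Of the members, Fth1 and Ftl1 had r = 0.849, and Hmox1 had r = -0.17 with Fth1 and 0.34 with Blvrb.

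Beyond the members, 66 further genes of iron and heme handling stood in 7 lists, and 54 had enough reads to be tested. edgeR, DESeq2 and limma voom each called 0 of them in either direction. At an unadjusted p under 0.05, 1 was higher in edgeR, where the background was 2.34%, and 0 were lower, where it was 1.98%, so the share was near the background. Of the 54, 34 (63.0%) were positive in log2 fold change, against 52.5% of all genes, and the median was 0.09 against 0.02. The one was Cp, which encodes ceruloplasmin, the ferroxidase that works with ferroportin. It had 11.0, 9.76 and 22 CPM across controls 1 to 3, against 25.8, 22.9 and 22.3 CPM across knockouts 1 to 3 (log2 fold change 0.85, SE 0.31, edgeR adjusted p = 0.999), with control 3 almost level with the knockouts.

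Iron export had 2 tested genes and a median of 0.44 in log2 fold change, and the other lists had medians between 0.00 and 0.24. In iron entry, 7 of 9 tested genes were above 0. Its gene with the smallest p was Hfe, which binds the transferrin receptor, at 226, 207 and 189 CPM across controls 1 to 3, against 229, 225 and 261 CPM across knockouts 1 to 3 (log2 fold change 0.20, SE 0.15). In ferritin turnover, 2 of 4 were above 0. Herc2, which targets the ferritin autophagy receptor NCOA4 for degradation, had 124, 129 and 127 CPM across the controls, against 97.5, 103 and 124 CPM across the knockouts (log2 fold change -0.22, SE 0.16). In iron sensing, 4 of 5 were above 0, and Zfp36, which speeds decay of Tfrc mRNA, was at -0.21 (SE 0.15) with overlapping groups.

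In heme uptake, transport and breakdown, 6 of 10 were above 0. Cd163, the scavenger receptor for hemoglobin bound to haptoglobin, had 0.0263, 1.75 and 3.14 CPM across controls 1 to 3, against 17.1, 7.27 and 2.14 CPM across knockouts 1 to 3 (log2 fold change 2.90, SE 1.60). It was highest in knockout 1 and is also one of the border macrophage markers given below. In heme synthesis, 4 of 8 were above 0, and Urod, a decarboxylase of the pathway, was at 0.33 (SE 0.25) with every knockout above every control. In mitochondrial iron and iron-sulfur clusters, 9 of 16 were above 0. The transporter gene Abcb10 was at -0.76 (SE 0.65) with every knockout below every control, from levels of at most 4.01 CPM. Its values rested on 5 reads in control 3 and 2 reads in knockout 2. Of the 54 tested list genes, 2 had every knockout above every control (background 6.59%). In 1 of them every knockout lay below every control (background 4.47%). Of the exonic bases of Abcb10, 10.3% are shared with Gm45890 on the other strand.

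**Figure D5:**
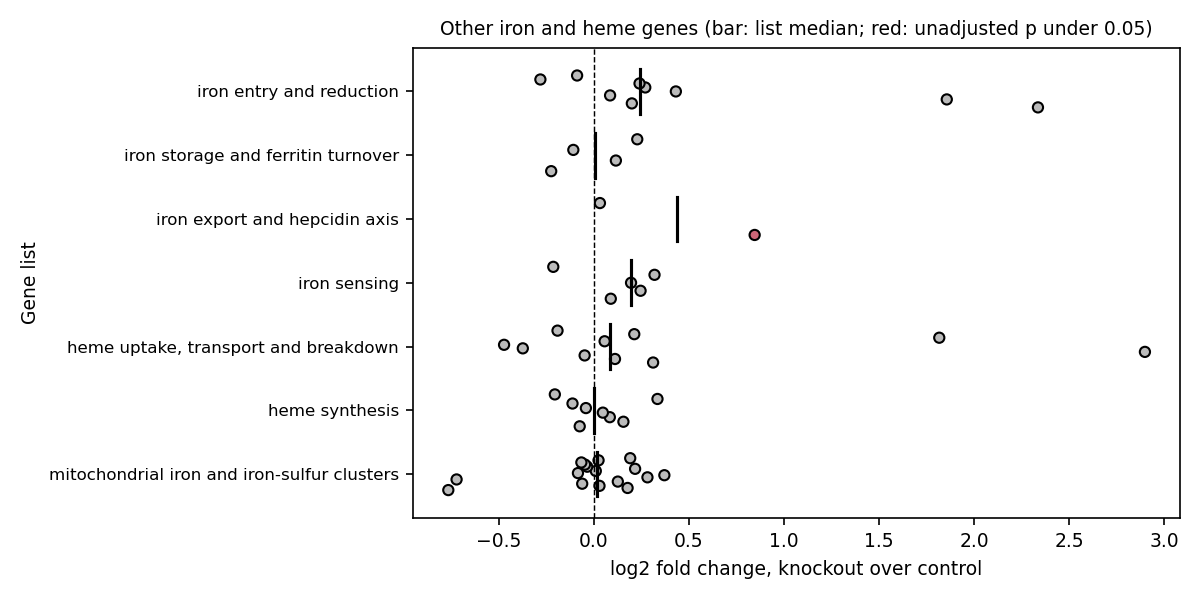
Log2 fold change, knockout over control, of the 54 tested genes in 7 further lists of iron and heme handling; each point is a gene, a black bar is the list's median, and red marks an unadjusted p under 0.05. Cp at 0.85 is the red point, and list medians lie between 0.00 and 0.44.

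Markers of other cells that express iron genes were read in the same libraries. In bulk RNA, fewer cells of a type and less RNA per cell cannot be told apart. Of 10 border macrophage markers, all 10 were above 0 in log2 fold change and 0 were called. Their sum was 418, 565 and 508 CPM across controls 1 to 3, against 690, 624 and 619 CPM across knockouts 1 to 3, so the groups did not overlap, and 1 gene, Stab1, made up most of it. Without Stab1 the other 9 summed to 17.1, 41.6 and 89.6 CPM across controls 1 to 3, against 278, 170 and 70.7 CPM across knockouts 1 to 3. Monocyte markers summed to 10.0, 34.2 and 47.1 CPM across the controls, against 145, 63.4 and 21.2 CPM across the knockouts, and neutrophil markers to 44.5, 363 and 482 CPM across the controls, against 1998, 654 and 142 CPM across the knockouts. All 5 tested monocyte markers and all 7 tested neutrophil markers were above 0, and 0 were called. Markers at 0 in at least 1 control numbered 3 of 10 for border macrophages, 4 of 8 for monocytes and 1 of 8 for neutrophils. Those at 0 in at least 1 knockout numbered 0 of 10, 0 of 8 and 2 of 8. These sums were highest in knockout 1. The part of these markers in the differences of Blvrb, Slc11a1, Fth1 and Ftl1 was not tested.

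Erythroid markers, which mark cells rich in heme, summed to 0.473, 0.86 and 11.0 CPM across controls 1 to 3, against 0.651, 5.71 and 42.4 CPM across knockouts 1 to 3, with 4 of 8 at 0 in at least 1 control and 5 of 8 in at least 1 knockout. In control 3, 3 reads are worth 2.36 CPM, and in knockout 2 they are worth 0.779 CPM, so both sums there rest on few reads. Knockout 3 had the highest erythroid sum and the highest Hmox1 level. The part of erythroid RNA in the levels of Hmox1 and Blvrb was not tested.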

How the data were processed

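RNA from sorted cortical microglia was measured by bulk RNA sequencing in 3 control and 3 knockout libraries. The labels give these as biological replicates and do not say how many mice went into each. The authors deposited raw read counts by gene, in whole numbers. Their tools, per the submitters' processing notes, were Salmon, STAR, bcl2fastq, featureCounts and Subread, with build GRCm39. Tool versions and the strand setting of the counting are not given in the sources used here in a form that can be printed. Without strand, reads of overlapping genes cannot be told apart. The first of each repeated identifier was kept, which removed 287 of 55774 rows, and 0 rows lacked a gene. Since 99.38% of the 55487 identifiers are in GENCODE M21 (GRCm38), lengths and transcripts came from it, and no coordinate was converted between builds.

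The main test of the counts was that of edgeR 4.0.16 under R 4.3.3 (default expression filter, TMM, robust quasi-likelihood F-test on group). P-values were adjusted over 15787 genes by the Benjamini-Hochberg method, with calls at 0.05. Standard errors were derived from the coefficient and its F statistic. Ratios of reads within a library were compared by two-sided exact permutation. DESeq2 1.42.0, limma 3.58.1, other scalings and filters, and leaving out libraries were alternatives, 18 in all. The edgeR steps were tested on simulated data. The members, lists and tests were chosen with earlier results of these data known. Besides the members, the text names each list's genes with an unadjusted p under 0.05, or else the one with the smallest p, the 3 most correlated protein-coding genes for the 2 members of smallest p, Atg7 and Cx3cr1. Library totals of 1254380 to 39389527 reads limit precision most in control 3.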

Additional observations from a re-analysis of the deposited data

How the results depend on the processing

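The count of members called higher was 1, and it became 0 with limma voom, with limma voom and library weights, with edgeR without the robust option and without both shallow libraries. Leaving out 1 library gave counts from 0 to 1, with 1 only without control 3. The labels do not say whether the same replicate numbers pair the libraries. Deviations from group means correlated at 0.30, -0.22 and -0.06 for numbers 1 to 3. Control 2 and control 3 each correlated best with another number. Such deviations sum to 0 within a group, and the shallow libraries, control 3 and knockout 2, correlated at 0.29. These correlations therefore cannot decide whether the numbers pair the libraries. With the replicate number as a block the count was 2, Blvrb (adjusted p = 0.00458) and Fth1 (adjusted p = 0.0367), and edgeR called 16 genes higher and 9 lower, against 5 and 2 without it. The count over all genes was also 15 higher and 35 lower without control 3, and 60 and 42 with no filter. No member was called lower and no list gene was called in any of these fits.

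The sign turned for differences near 0. Tfrc was at 0.12 with limma voom, 0.0857 with library weights and 0.16 without both shallow libraries, and leaving out 1 library gave -0.431 (knockout 1) to 0.0332 (control 3). Such ranges were -0.0146 (knockout 1) to 0.231 (control 3) for Slc40a1, -0.061 (knockout 1) to 0.292 (control 1) for Slc11a2 and -0.218 (control 2) to 0.173 (control 1) for Ireb2, which was also at 0.01 without knockout 3. The Fth1 to Ftl1 log2 difference ran from -0.0182 to 0.27 when 1 library was left out, with the negative value without knockout 1. Hmox1 ran from 0.05 (without knockout 3) to 0.37 (without knockout 2) and Blvra from 0.08 (without control 2) to 0.29 (without control 1). The corresponding ranges of the other ratios were 0.16 to 0.56 for Slc11a1 to Slc11a2 and 0.76 to 1.14 for Blvrb to Blvra. The cause of these changes was not tested, except that leaving out libraries leaves fewer samples. Of the members, Tfrc had the fewest reads, with 19 in control 3 and 33 in knockout 2.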

Other observations

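In 150 of 15787 tested genes (0.95%), both shallow libraries, control 3 and knockout 2, had at least 5 times the level of the highest other library. These genes were chosen after their values were seen. They include 0 of the 10 iron and heme members. Cybrd1, a ferric reductase gene of the iron entry list, is among them and had 0, 0.188 and 61.3 CPM across controls 1 to 3, against 0.178, 224 and 2.37 CPM across knockouts 1 to 3, and the 61.3 and 224 CPM rest on 78 and 864 reads.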
